A study of Mus musculus with 6 samples.

Results

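The 10 genes described here encode chaperones and folding factors that work inside the lumen of the endoplasmic reticulum (ER): Hspa5, Hsp90b1, Sdf2l1, Manf, Creld2, Hyou1, Dnajb11, Dnajc3, Dnajb9 and Calr. They were taken by gene symbol from the 16060 rows of the deposited expression table, and each symbol was found on 1 row. RNA was sequenced from the hippocampus of adult male C57BL/6 mice, with 3 libraries of the control group (saline by intraperitoneal injection) and 3 of the MA group (methamphetamine, in doses that were raised weekly over 3 weeks). The hippocampus was taken after the behavioral tests that followed the treatment, so the libraries hold RNA of a mixed tissue at 1 time point. In such bulk samples, fewer cells of a type and less RNA per cell cannot be told apart. The labels number the 3 libraries of a group but do not say that each came from its own mouse, and if they did not, the p-values measure only technical spread.

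The direction of every difference below is uncertain. The study's text calls the genes of its list upregulated, among them immediate early genes, Sdf2l1 and Hspb1. The list itself is headed as control against treated mice and does not state a direction. The text also describes immediate early genes as higher with methamphetamine by PCR. In contrast, the columns named MA in the deposited table hold lower values of these listed genes than the columns named Control. Whether the columns were exchanged, or the sign in the text turned, cannot be told apart from the files used here. MA and control therefore mean the libraries labelled so throughout. If the labels were exchanged, every sign, higher and lower included, would turn, while the sizes of the log2 differences, the p-values and the comparisons between genes would stay.

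Secreted and membrane proteins fold in the ER. Hspa5, also called BiP, is the Hsp70 chaperone of this compartment; J-domain proteins (Dnajb9, Dnajb11, Dnajc3) bring it to its clients and stimulate its ATPase, and Hyou1 exchanges its nucleotide. When unfolded proteins accumulate, BiP leaves the sensors Ern1, Eif2ak3 and Atf6, and the unfolded protein response (UPR) raises transcription of the chaperone genes through Atf6 and spliced Xbp1. The classical site for this is the ER stress element (ERSE), a CCAAT box that NF-Y binds, followed at a fixed distance by CCACG.

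Because the 10 genes are textbook targets of this response, their promoter sequences are shown first. For the same reason, a share of members with the element above that of all windows is background and not a result. A RefSeq window of 250 bases before to 50 bases after the transcription start (GRCm38.p6) was found for 8 of the 10 genes, and not for Manf and Hyou1. The ERSE, searched on both strands as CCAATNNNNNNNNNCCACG, was found in the windows of Hspa5, Hsp90b1, Calr, Creld2 and Dnajc3, that is in 5 of 8, while 39 of all 32851 windows (0.119%) held it. In each sequence below, read 5′ to 3′ on the strand of the gene, capitals mark the fixed letters of the element. Where the element lies on the opposite strand it begins with CGTGG and ends with ATTGG.
Hspa5 (chr2:34772005-34772063, plus strand): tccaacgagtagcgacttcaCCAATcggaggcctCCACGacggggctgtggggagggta
Hsp90b1, far element (chr10:86705618-86705676, minus strand): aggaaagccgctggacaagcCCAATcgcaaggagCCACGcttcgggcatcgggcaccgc
Hsp90b1, near element (chr10:86705513-86705571, minus strand): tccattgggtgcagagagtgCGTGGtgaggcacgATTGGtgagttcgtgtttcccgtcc
Calr (chr8:84847055-84847113, minus strand): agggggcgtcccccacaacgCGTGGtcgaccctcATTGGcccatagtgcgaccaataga
Creld2 (chr15:88819500-88819558, plus strand): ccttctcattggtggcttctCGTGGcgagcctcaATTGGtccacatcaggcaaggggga
Dnajc3 (chr14:118937807-118937865, plus strand): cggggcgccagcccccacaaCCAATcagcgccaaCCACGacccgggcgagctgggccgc

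The element of Hspa5 began 65 bases before the start. It began 212 and 107 bases before the start of Hsp90b1, 162 before that of Calr, 126 before that of Creld2 and 105 before that of Dnajc3. The second form of the element, ERSE-II, searched as ATTGGNCCACG on both strands, was found in the window of Dnajb11 and in 12 windows in all (0.0365%). It lies just after the start of Dnajb11, in these bases with the fixed letters in capitals.
Dnajb11 (chr16:22857844-22857870, plus strand): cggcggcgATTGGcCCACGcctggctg

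The windows of Sdf2l1 and Dnajb9 held neither form. Another motif, TGACGTGG, known as the UPR element, was in the window of none of the 8 genes and in 0.676% of all windows. When 1 of the 10 fixed letters of the ERSE was allowed to differ, 494 windows held it, and the members with a match were the same 5 genes. The 250 bases before the start of Sdf2l1, the member whose level differed most between the groups, held 3 CCAAT boxes and 3 CCACG boxes on either strand but at no point the spacing of the element. They are shown beside those of Hspa5, with both boxes in capitals wherever they occur on either strand. A match in these windows is a description of the sequence and not a binding site.
Sdf2l1 (chr16:17132384-17132633, minus strand): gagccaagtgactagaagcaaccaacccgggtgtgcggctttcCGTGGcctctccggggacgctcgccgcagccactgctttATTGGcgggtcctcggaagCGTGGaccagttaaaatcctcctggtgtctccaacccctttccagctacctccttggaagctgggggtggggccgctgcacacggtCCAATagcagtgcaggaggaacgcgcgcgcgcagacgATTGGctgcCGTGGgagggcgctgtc
Hspa5 (chr2:34771840-34772089, plus strand): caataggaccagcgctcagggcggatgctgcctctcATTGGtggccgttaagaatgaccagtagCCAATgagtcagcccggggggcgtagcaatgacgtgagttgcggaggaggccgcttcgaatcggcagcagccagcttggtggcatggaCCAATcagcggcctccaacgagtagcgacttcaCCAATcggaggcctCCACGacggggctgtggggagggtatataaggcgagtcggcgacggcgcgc

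To ask whether the chaperone genes differed between MA and control mice, the deposited values, read as log2 of RPKM plus 1, were compared with limma across all 13321 genes that passed a filter on low values. All 10 members passed this filter. Log2 fold changes are given as MA minus control, each from the means of 3 libraries, so a negative value is lower in the libraries labelled MA. Sdf2l1, Manf and Hspa5 were lower in the libraries labelled MA at an adjusted p-value under 0.05, so 3 of 10 members were called lower and none higher, while 0.0976% of all tested genes were called lower and 0.263% in either direction. All 10 means were lower in the MA libraries, with a median log2 fold change of -0.46 against -0.010 over all tested genes. At an unadjusted p-value under 0.05, 8 of 10 members were lower, as were 5.46% of all tested genes. The 3 MA values lay below all 3 control values in 8 of 10 members, and in 10.2% of all tested genes. The direction of all 10 members was kept under each of the 15 alternative settings and left-out libraries. Some of these could not turn it. The changed filters, the fit without the eBayes trend and the replicate block leave each log2 fold change as it was.

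**Figure D1:**
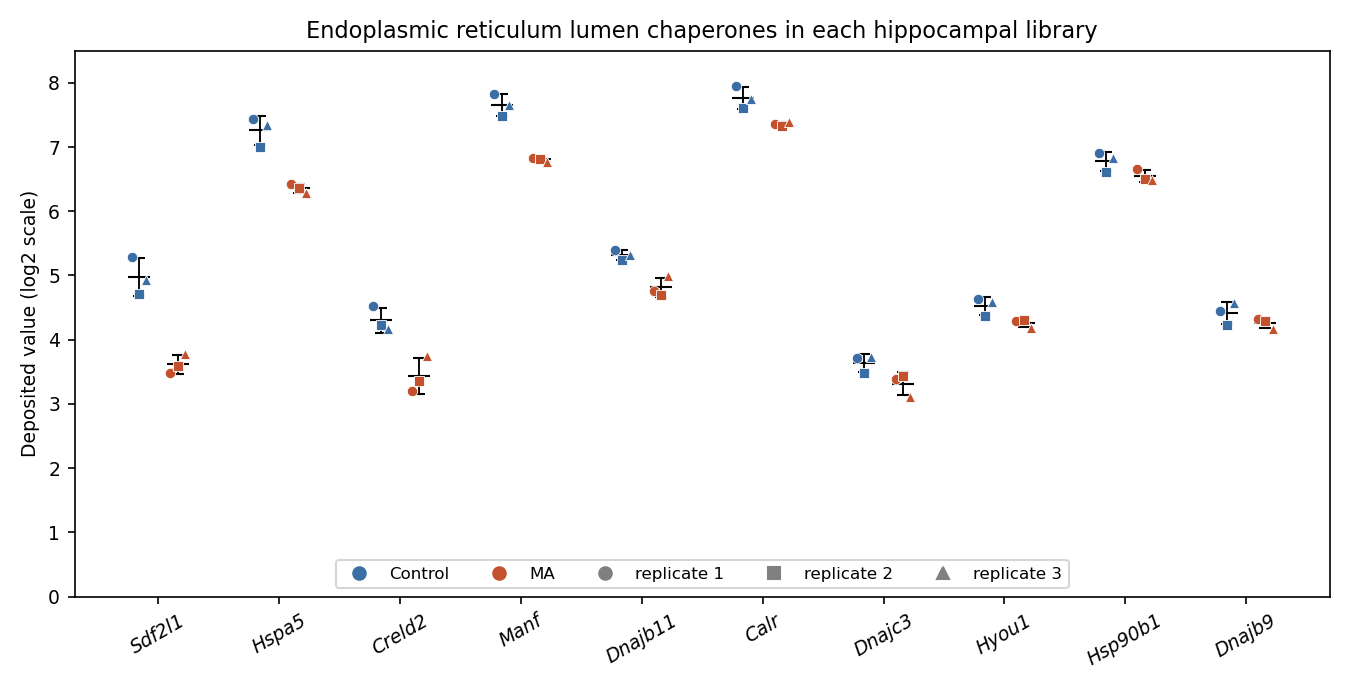
Deposited values on the log2 scale (vertical axis) of the 10 chaperone genes (horizontal axis, ordered by fold change), with 1 point per library, blue for Control and red for MA, marker shape for the replicate number, and bars for the mean and SD of 3 libraries. The groups are apart in 8 genes, by the widest margin in Sdf2l1 (0.93), and overlap in Hsp90b1 and Dnajb9.

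Several facts of the whole series bear on these counts. All 6 libraries shared 1 highest value and nearly 1 distribution as deposited, and with no read totals in the table the depth is unknown. MA replicate 3 had the lowest sample quality weight of the 6 libraries (0.194, limma). It also differed at the low end, with 0 rows at a value of exactly 0, against 259 to 437 rows in each of the other libraries. All 9 hippocampal neuron markers were detected, and their summed level ran from 315 to 420 in the control and from 278 to 328 in the MA libraries. All 9 had lower means in MA, as the chaperone genes did. None was called, 3 (Neurod6, Wfs1 and Pou3f1) had an unadjusted p-value under 0.05 and non-overlapping groups, and the median log2 fold change of the list was -0.21. Markers of the choroid plexus, a secretory epithelium beside the hippocampus, were higher in every MA library than in every control library in 8 of 8 genes. Their summed level ran from 65.9 to 422 in the control libraries and from 1780 to 5091 in the MA libraries. The 5 red blood cell markers were likewise apart, with sums of 1599 to 2024 and 3319 to 4378. The 5 thalamus markers summed to 19.95 to 25.6 in the control and 19.0 to 74.4 in the MA libraries, and the sums of the astrocyte, oligodendrocyte, microglia, endothelium and plasma cell markers overlapped between the groups. None of the choroid plexus or blood markers was at 0 in any library. Their part in the chaperone results was not tested.

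**Figure D2:**
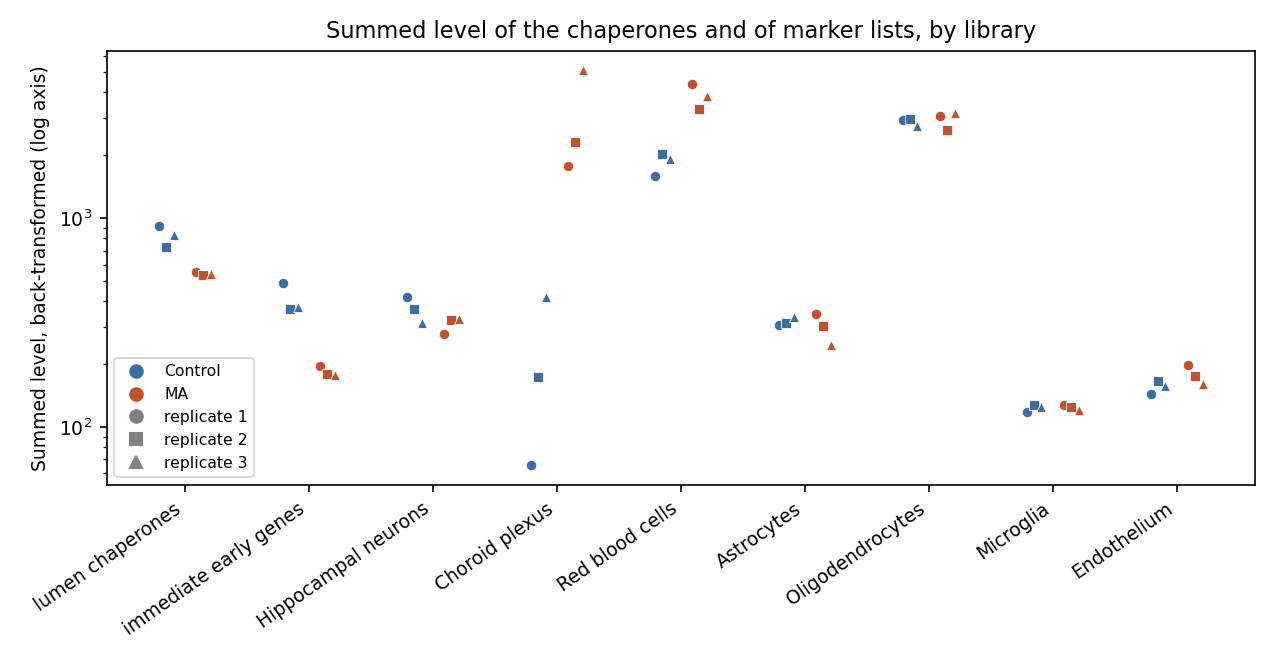
Summed back-transformed level (vertical axis, logarithmic) of the 10 chaperone genes, the immediate early genes and 7 marker lists (horizontal axis), with 1 point per library, blue for Control and red for MA. The chaperone sum is lower in the MA libraries (535 to 552) than in the control libraries (724 to 921), and the choroid plexus and red blood cell sums are higher. Most of the choroid plexus sum is Ttr.

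Hspa5, the Hsp70 chaperone BiP, was 7.43, 7.01 and 7.34 in control libraries 1, 2 and 3 and 6.43, 6.36 and 6.29 in MA libraries 1, 2 and 3 (log2 values). The lowest control value was 0.58 above the highest MA value, and the MA values lay within a narrow band. Its log2 fold change was -0.90 (95% interval -1.18 to -0.62, limma adjusted p = 0.0403), or 0.536 of the level in the libraries labelled control. This made Hspa5 the gene with the 28th lowest log2 fold change of the 13321 tested.

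Sdf2l1, which forms a complex with the J-domain protein encoded by Dnajb11 and keeps clients of BiP soluble, had the largest difference of the 10 genes. Its log2 values were 5.29, 4.71 and 4.92 in the control libraries and 3.49, 3.59 and 3.78 in the MA libraries. No MA value came within 0.93 of a control value. The log2 fold change was -1.36 (95% interval -1.73 to -0.99, limma adjusted p = 0.0315), or 0.390 of the level in the libraries labelled control, and it was the only member whose fold change exceeded 2. The study's text counts this gene among the upregulated ones, so its sign depends on the labels. Only 8 tested genes had a lower log2 fold change.

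Manf encodes a small ER-resident factor that binds BiP, is released under ER stress and protects dopaminergic neurons. Its log2 values were 7.83, 7.49 and 7.65 in the control libraries and 6.84, 6.82 and 6.77 in the MA libraries. The MA libraries were nearly equal (SD 0.032, n = 3), and all lay below the controls. The log2 fold change was -0.85 (95% interval -1.08 to -0.62, limma adjusted p = 0.0315), or 0.556 of the level in the libraries labelled control. Exons of Manf (chr9:106838312-106891979, minus strand, GRCm38) share 146 bases with the other-strand gene Dcaf1, 166 with the other-strand transcript 4930524O07Rik and 14 with Rbm15b of the same strand, together a small part of its 3524 exonic bases. Neither Dcaf1, listed as Vprbp, nor Rbm15b was called (limma adjusted p = 0.692 and 0.473). The text of the methods does not say whether counting used strand.

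The calls of Sdf2l1, Manf and Hspa5 were not stable when 1 library was left out. In the 6 fits that did so, each of these calls was lost in 5 and held in 1. It held without MA replicate 3, where 5 members were called. The log2 fold changes ran from -1.49 to -1.20 for Sdf2l1, -0.93 to -0.76 for Manf and -1.03 to -0.81 for Hspa5. Calls over all tested genes ran from 0 to 257 in the same fits, against 35 with all libraries. The cause was not tested. With no filter on low values the limma adjusted p-values were 0.0684 for Sdf2l1 and Manf and 0.0815 for Hspa5. Hspa5 also lost its call with a pseudocount of 0.01 (0.0518) and without the trend of eBayes (0.0591). An exact permutation test of 3 against 3 libraries gave p = 0.1 (two-sided) for each of the 3 genes, the smallest value that this design allows.

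**Figure D3:**
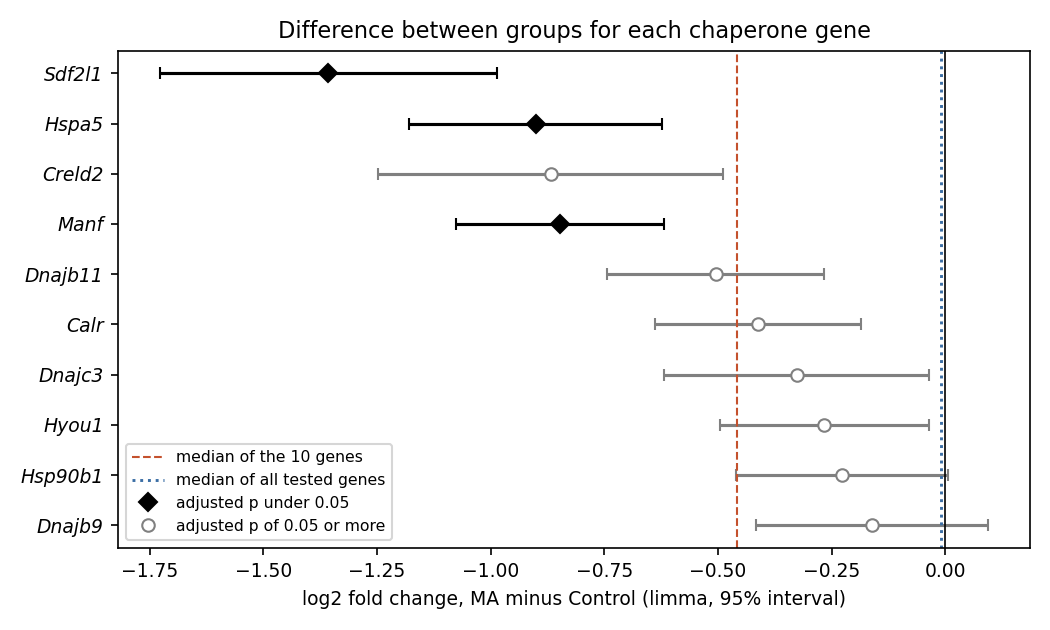
Log2 fold change, MA minus Control (horizontal axis), of each chaperone gene (vertical axis) with the 95% interval from limma. Filled diamonds mark the 3 genes with an adjusted p-value under 0.05, the dashed line the median of the 10 genes (-0.46) and the dotted line that of all tested genes (-0.010). The intervals of Hsp90b1 and Dnajb9 include 0.

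Creld2 and Dnajb11 had non-overlapping groups but did not pass the adjusted threshold. Creld2 encodes a secreted ER protein with EGF-like repeats and isomerase activity that is induced by ER stress. Its log2 values were 4.52, 4.22 and 4.17 in the control libraries and 3.20, 3.36 and 3.74 in the MA libraries. Its difference was of the size of that of Hspa5 and Manf, and its MA libraries were the most spread of the 10 genes (SD 0.28, n = 3). The log2 fold change was -0.87 (95% interval -1.25 to -0.49, limma adjusted p = 0.130).

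For Dnajb11, a soluble J-domain partner of BiP (ERdj3), the control values were 5.40, 5.24 and 5.31 and the MA values 4.76, 4.70 and 4.99 on the log2 scale. As in Creld2 and Sdf2l1, MA replicate 3 was the highest of its group and thus nearest to the controls. The log2 fold change was -0.51 (95% interval -0.74 to -0.27, limma adjusted p = 0.150). Without MA replicate 3, both Creld2 and Dnajb11 were called, at a limma adjusted p of 0.0274 for each and log2 fold changes of -1.02 and -0.59. They were also called with limma's sample quality weights, under which that library counts least (0.00928 and 0.0108). Over all tested genes, 257 were called without MA replicate 3 and 586 with the weights, against 35 with all libraries and no weights.

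Calr encodes calreticulin, the soluble lectin that binds glycoproteins with trimmed sugars and stores calcium. It had the highest level per length of the 10 genes in both groups, with log2 values of 7.95, 7.61 and 7.75 in the control libraries and 7.35, 7.33 and 7.39 in the MA libraries. The groups did not overlap and the MA libraries differed from each other by less than 0.1, but the log2 fold change of -0.41 did not pass the threshold (95% interval -0.64 to -0.18, limma adjusted p = 0.219). Calr was called only with sample quality weights (0.0471), a fit that called 586 of all tested genes. A stretch of 495 bases of its transcript is 92.5% identical to the pseudogene Calr-ps, so its reads may be split, and its level is uncertain to that extent. Canx, the membrane-bound lectin of the same cycle, was 6.74, 6.55 and 6.75 in the control and 6.92, 6.83 and 6.31 in the MA libraries. Its groups overlapped and its log2 fold change was 0.0069 (95% interval -0.37 to 0.38).

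The remaining 4 members, Hsp90b1, Hyou1, Dnajc3 and Dnajb9, had log2 fold changes between -0.33 and -0.16, and none was called under any of the 15 alternatives. Hyou1, the large Hsp70-like exchange factor of BiP, was 4.63, 4.37 and 4.58 in the control libraries and 4.29, 4.31 and 4.18 in the MA libraries. The groups were apart by 0.058, less than the SD of either group. Dnajc3, the J-domain protein p58IPK that also inhibits eIF2alpha kinases, was 3.72, 3.48 and 3.73 against 3.40, 3.44 and 3.11, with a gap of 0.043.

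Hsp90b1, the Hsp90 of the ER (GRP94), was 6.90, 6.61 and 6.82 in the control and 6.66, 6.50 and 6.49 in the MA libraries. MA replicate 1 lay above control replicate 2, so the groups overlapped (exact permutation test, two-sided, p = 0.2). Dnajb9, the J-domain protein ERdj4, had the smallest difference, with 4.45, 4.24 and 4.57 in the control and 4.32, 4.29 and 4.16 in the MA libraries (exact permutation test, two-sided, p = 0.3). The log2 fold changes were -0.23 for Hsp90b1 (95% interval -0.46 to 0.0066) and -0.16 for Dnajb9 (95% interval -0.42 to 0.094), with limma adjusted p-values of 0.488 and 0.675. Both genes are uncertain. Hsp90b1 shares 415 exonic bases with the other-strand pseudogene 1810014B01Rik, and Dnajb9 has 697 bases that are 93.3% identical to Gm6568.

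The differences between the members were thus unequal, and this was examined within libraries, where a factor that scales a whole library has no effect. On the back-transformed scale, per gene length, the 10 genes summed to 921, 724 and 831 in control libraries 1 to 3 and to 552, 535 and 539 in the MA libraries. The sum in the MA libraries was 0.657 of that in the controls, and the MA libraries differed far less from each other (SD 8.95, n = 3) than the controls did (SD 98.6, n = 3). Hspa5 made up 18.6% ± 0.91 (SD, n = 3) of the sum in the control and 15% ± 0.55 (SD, n = 3) in the MA libraries. Manf went from 24.4% ± 0.35 to 20.5% ± 0.40 and Sdf2l1 from 3.71% ± 0.37 to 2.09% ± 0.26 (SD, n = 3 each). Conversely, Hsp90b1 made up 13.2% ± 0.34 in the control and 17.1% ± 0.86 in the MA libraries, and Calr 26.4% ± 0.57 and 30.1% ± 0.76 (SD, n = 3 each). For each of these 5 genes the shares of the groups did not overlap (exact permutation test, two-sided, p = 0.1, the smallest possible). The same held for Hyou1, with 2.68% ± 0.096 in the control and 3.35% ± 0.16 in the MA libraries, and for Dnajb9, with 2.49% ± 0.25 and 3.35% ± 0.18 (SD, n = 3 each). The shares of Creld2, Dnajb11 and Dnajc3 overlapped. As the shares add up to the whole, they are not independent of each other. They follow from the fold changes given above and add no separate evidence. The genes with a higher share in MA still had lower means there. No such shares were computed for other sets of genes.

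**Figure D4:**
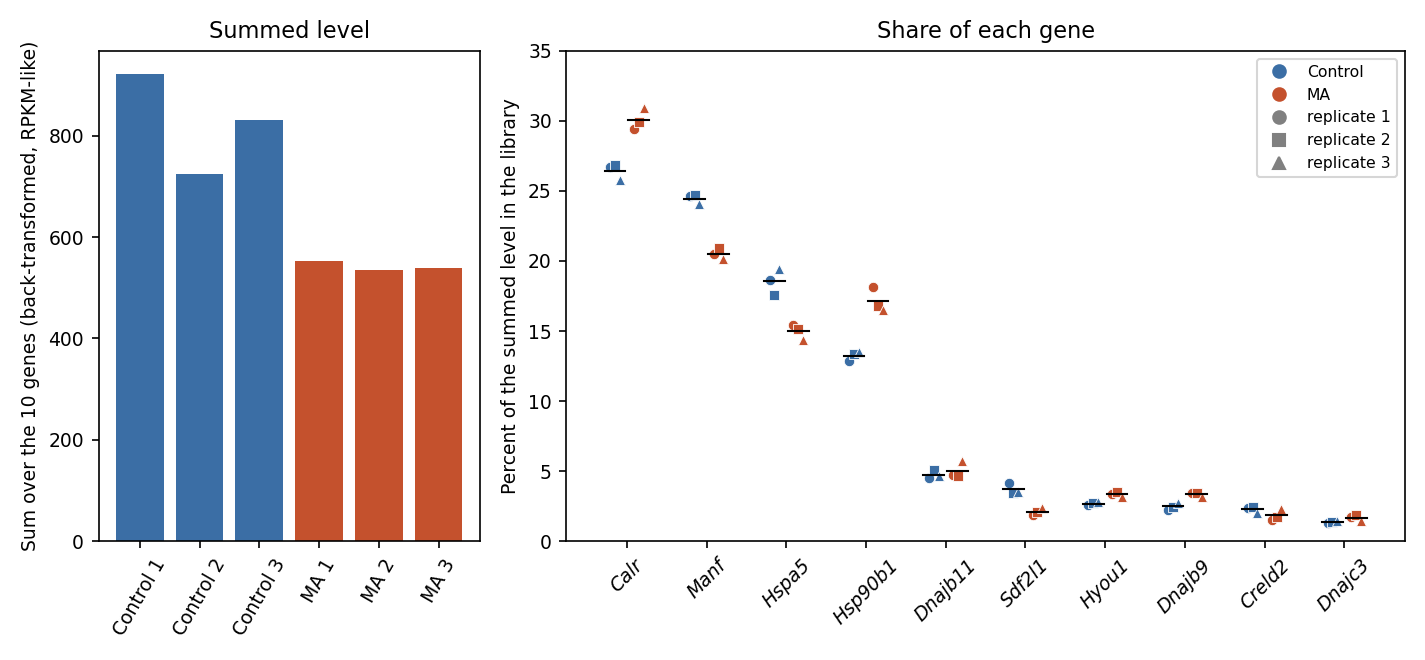
Left, the sum of the back-transformed values of the 10 chaperone genes in each library (bars, vertical axis). Right, the percent of that sum taken by each gene, with 1 point per library, blue for Control and red for MA, and a line at the mean of 3 libraries. The sum is 921, 724 and 831 in the control libraries and 552, 535 and 539 in the MA libraries. The shares of Hspa5, Manf and Sdf2l1 are lower in MA and those of Hsp90b1, Calr, Hyou1 and Dnajb9 higher, each without overlap.

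The log2 difference between Hspa5 and Hsp90b1, the Hsp70 and the Hsp90 of the lumen, was 0.53, 0.40 and 0.52 in the control libraries and -0.23, -0.15 and -0.20 in the MA libraries. Hspa5 was thus the more abundant of the pair in each library labelled control and the less abundant in each labelled MA, and the reverse would hold if the labels were exchanged. Hspa5 was also compared with Hsp70 genes of other compartments. Its log2 difference to the mitochondrial Hspa9 was 1.29 ± 0.20 in the control and 0.47 ± 0.05 in the MA group, and to the cytosolic Hspa8 -2.63 ± 0.13 and then -3.26 ± 0.02 (each SD over 3 libraries). Both differences were apart between the groups. Their exact permutation p was 0.1 (two-sided), the smallest possible. Not all such pairs were apart. Hsp90b1 minus the cytosolic Hsp90ab1 was -2.77 ± 0.04 in the control and -2.85 ± 0.23 in the MA libraries, with overlapping groups (SD over 3 libraries, exact permutation test, two-sided, p = 0.7). Calr minus Canx was 1.09 ± 0.11 and 0.67 ± 0.35 and overlapped as well (exact permutation test, two-sided, p = 0.3). In both pairs MA replicates 1 and 2 lay below every control library, and MA replicate 3 (-2.62 and 1.07) did not. In all, 12 pairs were compared, and the groups overlapped in these 2 pairs. Nearly all pairs held a member whose own groups were already apart, so this count adds no separate evidence. The 12 include Manf minus Cdnf, although Cdnf was too low to be tested. No share was computed for pairs of other genes.

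Some of the members have a paralog that is not counted among the stress-induced genes, and these were set beside each other. Sdf2, the paralog of Sdf2l1, was 5.52, 5.35 and 5.40 in the control and 5.45, 5.43 and 5.50 in the MA libraries, with a log2 fold change of 0.038 (95% interval -0.15 to 0.22). The log2 value of Sdf2l1 minus that of Sdf2 was between -0.64 and -0.23 in the control libraries and between -1.96 and -1.73 in the MA libraries. Creld2 minus Creld1 was -1.47 ± 0.09 in the control and -2.17 ± 0.07 in the MA group (SD over 3 libraries). Cdnf, the paralog of Manf, was too low to be tested, with log2 values from 0.409 to 0.938 in the control and from 0.361 to 0.600 in the MA libraries.

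The members also varied together within the groups. Control replicate 1 had the highest control value in 8 of the 10 genes, and control replicate 2 the lowest in 9 of the 10. In the MA group no library stood on one side in this way: MA replicate 3 had the highest value in 4 genes and the lowest in 6. Of the 45 pairs of members, 39 had a positive correlation of their deviations from the group means over the 6 libraries, with a median Pearson's r of 0.64. The lowest, -0.47, was between Creld2 and Dnajc3. All pairs rest on the same libraries, and the values describe these libraries alone. No such share was computed for other genes, so whether this is particular to the members was not tested. Control replicate 1 was also the highest control and control replicate 2 the lowest in the sums of several lists read below. Among these were the disulfide isomerases, the cytosolic heat shock genes and the immediate early genes, but the order was not the same in all lists.

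The other genes of the pathway were read from the same limma fit by lists of known function. Of the sensors and transcription factors of the UPR, 15 were tested, and 1, Xbp1, was called lower in MA. At an unadjusted p-value under 0.05 (limma), 3 were lower, Xbp1, Ppp1r15b and Atf4 (-0.23), and 1, Mbtps1 (0.21), was higher. The MA libraries lay below all controls in 5 of the 15 genes, against 10.2% of all tested genes, and above them in 2. Xbp1, whose spliced messenger encodes the activator of many chaperone genes, was 5.67, 5.46 and 5.57 in the control and 4.84, 4.66 and 4.73 in the MA libraries (log2 fold change -0.82, limma adjusted p = 0.0315). The table gives 1 value per gene, so spliced and unspliced forms are not told apart. The sensors Atf6, Eif2ak3 and Ern1 had overlapping groups and log2 fold changes of -0.13, -0.16 and 0.056. Ddit3, the factor CHOP, and Ppp1r15b, a phosphatase subunit for eIF2alpha, had log2 fold changes of -0.36 and -0.32 and were not called.

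Of the protein disulfide isomerases and oxidases, which form disulfide bonds in the lumen, 0 of 19 were called (limma), 5 had an unadjusted p-value under 0.05, all lower in MA, and the median log2 fold change was -0.11. The largest differences were those of Pdia4, Pdia6 and Pdia3 (-0.79, -0.68 and -0.35), and in each of these 3 genes the MA libraries lay below the controls. Pdia4 had values of 4.93, 4.65 and 4.88 in the control and 3.93, 3.94 and 4.22 in the MA libraries (limma adjusted p = 0.0628). Among 24 other chaperones and folding enzymes of the ER 0 were called (limma) and 2 had an unadjusted p-value under 0.05, 1 in each direction. These were Serpinh1, a collagen chaperone (-0.57), and Uggt2, a glucosyltransferase of the calnexin cycle (0.35). Fkbp11, a prolyl isomerase, had a log2 fold change of 0.38 (95% interval -0.083 to 0.84).

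Of 28 genes of ER-associated degradation 0 were called (limma), 3 had an unadjusted p-value under 0.05, all lower, and the median was -0.049. Herpud1 and Derl3 had log2 fold changes of -0.39 and -0.35, and Erlec1 0.31. Of 28 genes of translocation and N-glycosylation 0 were called (limma), 4 had an unadjusted p-value under 0.05, all lower, and Spcs3, Sec11c and Ostc had log2 fold changes of -0.39, -0.30 and -0.27. In the list of KDEL receptors, cargo receptors and export, 0 of 25 genes were called and 0 had an unadjusted p-value under 0.05 (limma). The KDEL receptors, which return escaped lumen proteins to the ER, had log2 fold changes of 0.016 for Kdelr1 and 0.014 for Kdelr2, while Kdelr3 was too low to be tested. The largest differences in this list were those of Sec24a (-0.17), Lman2 (-0.17) and Sec24b (-0.16).

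Outside the ER, 0 of 17 cytosolic heat shock genes were called (limma), 9 had an unadjusted p-value under 0.05, all lower in MA, and the median log2 fold change was -0.28. Hspb1, which the study's text counts among the upregulated genes, had the largest difference (-1.27, limma adjusted p = 0.0785). Hspa1a and Hspa1b followed (-0.75 and -0.71), near-identical copies whose reads could be split. Of 11 mitochondrial chaperones and proteases 0 were called (limma), 1, Hspe1, had an unadjusted p-value under 0.05 (-0.18), and the median was -0.065. Clpx and Grpel1 had log2 fold changes of 0.13 and -0.13. The immediate early genes, which neurons transcribe upon activity, had the largest median in size of the lists of known function, -1.19, marker lists aside. Of these genes, 6 of 16 were called, all lower in MA. These were Arc, Fos, Egr1, Nr4a1, Fosb and Junb, with log2 fold changes from -1.80 to -1.26. The study describes immediate early genes as higher with methamphetamine, so this sign too depends on the labels. Their part in the chaperone results was not tested.

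**Figure D5:**
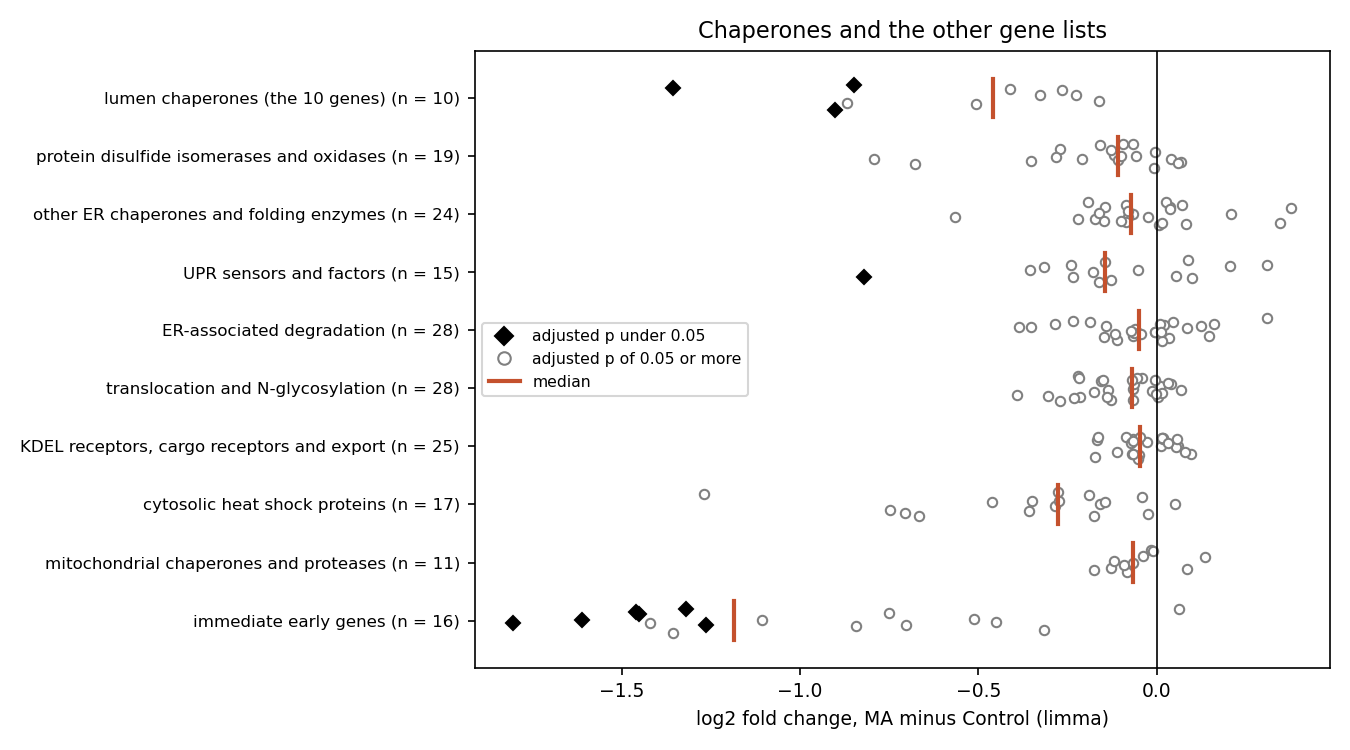
Log2 fold change, MA minus Control (horizontal axis), of every tested gene in the 10 chaperone genes and 9 further lists (vertical axis), where filled diamonds mark an adjusted p-value under 0.05 in limma, open circles all other genes and vertical bars the median. The medians are -0.46 for the lumen chaperones, -0.28 for the cytosolic heat shock proteins and -1.19 for the immediate early genes, and between -0.14 and -0.047 for the other lists.

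The promoter element was not shared only by genes that were lower. Besides the members, 14 tested genes held the exact ERSE in their window. Of these, 5 were lower and 9 higher in the MA libraries, 0 were called in either direction (limma), 2 were lower and 1 higher at an unadjusted p-value under 0.05, and the median log2 fold change was 0.063. Pdia6 and Derl3 were the 2 lower ones (limma adjusted p = 0.122 and 0.417). The remaining lower genes were Alg12, Syvn1 and Calr4 (log2 fold changes -0.20, -0.14 and -0.12). The 9 higher ones were Acacb (0.91), Adcy3, Canx (0.0069), Hnrnpa3, Pan2, Spats2l, Xlr3a, Xlr3b and Zfp57. Of the 14, Pdia6, Derl3, Syvn1 and Canx were also in the ER lists read above, and all but Canx were lower. The groups were apart in Pdia6, Derl3 and Calr4, with MA below, and in Acacb, with MA above. Whether the genes with the element differed by function was not tested. Of the members with an exact ERSE, the log2 fold changes ran from -0.90 for Hspa5 to -0.23 for Hsp90b1, which held it at both places shown above. The window of Creld2 overlaps that of Alg12, a mannosyltransferase gene transcribed in the other direction, by 173 bases, so that both hold the same ERSE. Alg12, named here after its values were seen, was 2.34, 2.35 and 2.27 in the control and 1.86, 2.03 and 2.48 in the MA libraries. Its groups overlapped, while those of Creld2 did not.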

How the data were processed

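Hippocampal RNA of 3 Control and 3 MA libraries was analysed. According to the methods, Hisat2 aligned the reads, featureCounts counted them and FPKM were computed by gene length, whereas the submitters' processing notes name Bowtie 0.12.2 and the builds mm8 and mm9. The authors deposited 1 table named as RPKM whose values lie on a log2 scale; base 2, an offset of 1 and a normalization between libraries were inferred from the values. Depth is not given, so no counting error could be computed. The values were tested with limma 3.58.1 in R 4.3.3 (eBayes with trend, no covariate) over the genes that reached 0.5 after back-transformation in 3 or more libraries, with Benjamini-Hochberg adjustment and a threshold of 0.05. The test was checked on simulated data. Intervals are 95% intervals from this fit, and single values were tested with an exact permutation test. Differences within a library and shares used the deposited and the back-transformed values.

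The members, the lists and the tests were chosen with earlier results of these data known. All members are named, and from each list the called genes, the 3 with the largest absolute log2 fold change and a few fixed partners. Sequences are from RefSeq (GRCm38.p6) and gene coordinates and exon overlaps from GENCODE M21 (GRCm38), matched on the Ensembl identifier. The authors' files hold no coordinates. Near copies were searched with blastn among GENCODE transcripts (at least 90% identity over at least 150 bases). Alternatives were pseudocounts of 0.1 and 0.01, no filter, a minimum mean of 5, median centring, quantile normalization, no trend, sample quality weights, the replicate number as a block and leaving out each library.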

Additional observations from a re-analysis of the deposited data

How the results depend on the processing

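Over all tested genes 35 were called in limma. This count was 3 with no filter, 20 with a minimum mean of 5, 586 with sample quality weights and 15 with the replicate block, and ran from 0 to 257 when 1 library was left out in turn (at 0, between 911 and 1031 genes had an unadjusted p-value under 0.05). Among the 10 chaperone genes, 3 were called. Sample quality weights gave 6, whereas no filter and the replicate block each gave 0, with 8 and 6 members at an unadjusted p-value under 0.05. Leaving out 1 library gave from 0 to 5 called members, 5 without MA replicate 3 and 0 without any other, with 6 to 9 at an unadjusted p-value under 0.05. The cause was not tested. A pseudocount of 0.01 and no eBayes trend each gave 2, and the other settings 3. The median log2 fold change of the members stayed between -0.52 and -0.39 throughout, and no member changed sign. The changed filters, the fit without the eBayes trend and the replicate block leave the members' fold changes as they were, so these settings could not move them. Nothing says that same-numbered mice were paired: the deviations of same-numbered libraries correlated at -0.197, -0.242 and -0.337 across genes. Depth is unknown, so its limit cannot be given.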

Other observations

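By the rule for likeness, the 8 tested genes outside the 10 whose pattern over the 6 libraries was closest to the mean of the chaperone genes were Atg5, Ptpn12, Nck1, Pdia6, Capn7, Ddhd1, Ptma and Wdr61, with Pearson's r from 0.997 to 0.989. Pdia6, a protein disulfide isomerase, was the one that also works in the ER lumen. Its log2 values were 6.75, 6.26 and 6.45 in the control and 5.82, 5.82 and 5.79 in the MA libraries and control replicate 2 was the lowest control, as in Hspa5. Ptma, which encodes the nuclear protein prothymosin alpha, had the highest level of the 8, with 9.14, 8.99 and 9.11 against 8.65, 8.59 and 8.63. None of the 8 genes was called in limma, and their adjusted p-values ran from 0.0696 for Ptma to 0.615 for Capn7. The r values share the same 6 libraries and the same group difference, and are given as a description.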
